A study of Mus musculus with 65 samples.

Results

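The mitochondrially encoded genes are the rows of the count table whose symbol starts with mt-. They number 37 of 55292 rows and are 13 protein genes, 2 ribosomal RNA genes and 22 transfer RNA genes. All 37 lie on chromosome M in the GENCODE M21 annotation (build GRCm38). They were chosen by name and not by any measured value. They are described over 65 single outer hair cells (OHCs), the electromotile sensory cells of the cochlea.

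Of the cells, 17 are labelled CKO, from Atoh1Cre/+; Casz1flox/flox; Slc26a5FlpO/+; Rosa26FSF-H2BEGFP/+ mice, and 48 are labelled WT, from Slc26a5FlpO/+; Rosa26FSF-H2BEGFP/+ mice. Both carry the Flp recombinase of the Slc26a5 (prestin) locus and a Flp-dependent nuclear GFP by which cells were picked by hand, and all were taken at postnatal day 10. In CKO mice, Cre from Atoh1, a gene of hair cell precursors, recombines the floxed alleles of Casz1, which codes for a zinc finger transcription factor. The titles and the design call all 65 cells OHCs, while a protocol text shared by the samples also speaks of inner hair cells and induced OHCs. No label ties a cell to an animal, so each genotype is treated as 1 sample, no test was run, and no difference between genotypes carries a p-value.

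The mitochondrial genome is a small circle that codes for subunits of the respiratory chain (complexes I, III and IV) and of the ATP synthase (complex V), together with the ribosomal and transfer RNAs that translate them within the organelle. Both of its strands are transcribed as long precursors from which the messenger and ribosomal RNAs are released, mostly by cutting out the transfer RNAs that stand between them. All other subunits, the polymerases and the import machinery are coded in the nucleus. OHCs change length in response to sound and are rich in mitochondria.

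Parts of this genome also stand in the nuclear reference, and that bears on which counts can be read. A stretch of 4663 bases on the minus strand of chromosome 1, chr1:24611535-24616197 in GRCm38, runs collinear with bases 6390 to 11042 of chromosome M and is annotated as 7 pseudogenes. By position it spans 6 protein genes whole (mt-Co2, mt-Atp8, mt-Atp6, mt-Co3, mt-Nd3 and mt-Nd4l) and 5 transfer RNA genes, and it cuts into mt-Co1 and mt-Nd4. Most of mt-Atp8 falls in a gap between annotated pseudogenes, whose bases were not read here. Aligned to its member, Gm28661 (mt-Co2) was 100% identical over 681 bases, and Gm10925 (mt-Atp6), Gm28437 (mt-Co3) and Gm10222 (mt-Nd4l) were also 100% identical. Of all 50-base windows of mt-Co2, mt-Atp6, mt-Co3, mt-Nd3 and mt-Nd4l, at least 97.99% occur unchanged in an annotated nuclear transcript. The share was 62.2% for mt-Nd4, 51.1% for mt-Co1 and 8.19% for mt-Nd2, and it was 0 for mt-Nd1, mt-Cytb, mt-Nd6 and mt-Rnr1. The first 60 bases of mt-Co2 and of its 2 nuclear matches show how near these copies are, with capitals at the 2 bases where the match on chromosome 2, Gm13341, differs.
mt-Co2: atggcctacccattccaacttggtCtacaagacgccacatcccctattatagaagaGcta
Gm28661: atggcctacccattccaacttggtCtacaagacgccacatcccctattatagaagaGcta
Gm13341: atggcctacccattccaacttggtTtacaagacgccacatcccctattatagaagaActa
The chromosome 1 copy ends within mt-Nd4, and the next line gives that gene across the edge, with the bases past the end of Gm28439 in capitals.
mt-Nd4: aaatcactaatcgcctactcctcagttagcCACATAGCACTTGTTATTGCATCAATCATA
The sequences are from the GENCODE M21 transcripts, written as DNA in the direction of each transcript.

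Whole-table facts that touch these genes are few. Totals per cell were 8239671 to 15320549 counts in CKO and 7458126 to 17107710 in WT, with 5938 to 8562 genes detected in CKO cells and 5426 to 8945 in WT cells. WT cells numbered 1 to 11, 12 to 45 and 46 to 48 differ from each other, and these 3 runs are shown apart. They were set in earlier work on these data after seeing mt-Co2, so differences of mt-Co2 and its neighbours between them are a description only, and no label calls the runs batches. In 15 of 17 CKO cells and 9 of 48 WT cells there were at least 10 Xist counts and under 10 counts over 4 Y-linked genes, the pattern of a female cell. Of those 9 WT cells 8 are in the run 1 to 11, so sex, run and genotype cannot be told apart for most cells. The reverse pattern, that of a male cell, was found in 37 WT cells and in no CKO cell. In each genotype 2 cells had neither pattern. Casz1 was at 46.2 counts per 1000000 counts of the group (CPM) in CKO and 53.3 CPM in WT. The labels used here do not name the floxed exons, so this level does not check the deletion. All 5 OHC markers were measured, 4 higher and 1 lower in CKO, and 3 of 5 were lower against WT cells 1 to 11. Slc26a5 was at 1175 CPM in CKO against 931 CPM in WT, with 1649, 576 and 1332 CPM in the runs in order, so its direction depends on the run. Ocm (oncomodulin) was at 49172 CPM in CKO against 36667 CPM in WT. Of 5 general hair cell markers 4 were measured, all lower in CKO, with a summed level of 1227 CPM against 1565 CPM, and 2 of 4 were lower against WT cells 1 to 11. Summed inner hair cell markers ran from 0 to 82.8 CPM over CKO cells and from 0 to 102 CPM over WT cells. Summed supporting cell markers, the highest of the lists for other cell types, were at 2004 CPM in CKO against 2808 CPM in WT, with 2452, 3030 and 2160 CPM in the runs, and so were lower in CKO against each run. They ran from 907 to 4003 CPM over CKO cells and from 1031 to 5718 CPM over WT cells, and 3 of the 4 measured were lower in CKO. Singly they did not all follow the sum: against WT cells 46 to 48, 2 of the 3 measured were higher in CKO and 1 lower. Summed neuron markers were at 254 CPM in CKO against 259 CPM in WT. Summed markers of macrophages were at 3.84 CPM in CKO against 19.3 CPM in WT, of mesenchyme at 8.45 against 29.1 CPM, of glia at 0.756 against 6.67 CPM and of red cells at 5.07 against 4.41 CPM. The macrophage markers C1qa and Cx3cr1 and the mesenchyme markers Col3a1 and Pou3f4 had no count in either genotype. The part of these other RNAs in the results was not tested.

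CKO cells held a smaller share of mitochondrially encoded counts than WT cells, except the 3 WT cells 46 to 48. Per cell, the 37 genes took 2.50% to 9.58% of all counts in CKO, with a median of 4.76%. They took 4.86% to 8.51% in WT cells 1 to 11 (median 6.46%), 4.71% to 10.2% in WT cells 12 to 45 (median 6.67%), and 4.19%, 4.53% and 5.43% in WT cells 46 to 48. The ranges overlap: 7 of 17 CKO cells lay below the lowest of all WT cells, and 3 of 48 WT cells lay below the CKO median. CKO cells 4 and 7, at 9.58% and 7.86%, lay above the WT median of 6.52%. Among all 816 pairs of a CKO and a WT cell, the CKO cell was the higher in 18.4%, a share that was 18.7%, 15.9% and 45.1% against the runs in their order.

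Summed over cells, the share was 4.88% in CKO and 6.63% in WT, a log2 ratio of -0.44. Its 95% counting interval, -0.444 to -0.442, covers counting error only. The counts are reads without molecular identifiers, so that intervals of this kind say nothing of the spread between animals. Against WT cells 1 to 11 (6.44%) the log2 ratio was -0.40, and against WT cells 12 to 45 (6.91%) it was -0.50. Against WT cells 46 to 48 (4.72%) it was 0.05, so the direction turns in that run. Among Xist-pattern cells, the share per cell was 2.81% to 9.58% in 15 CKO cells (median 4.98%) and 5.13% to 8.51% in 9 WT cells (median 6.46%).

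**Figure D1:**
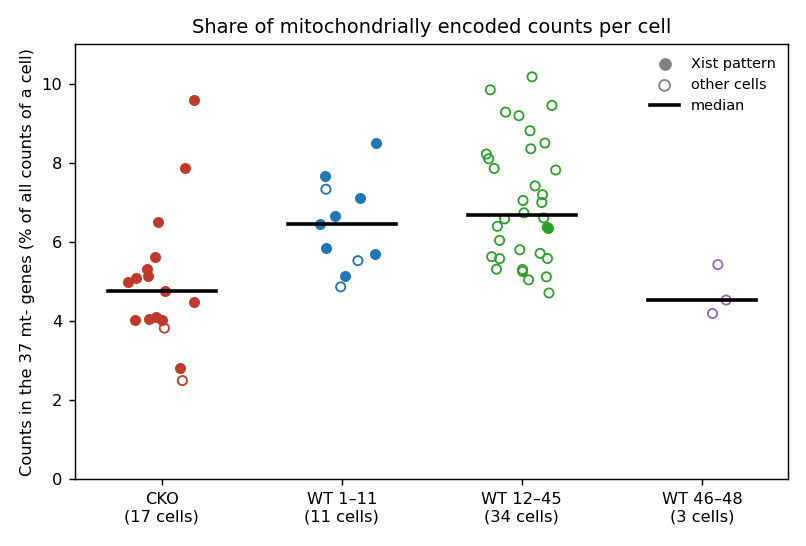
Each point is 1 cell, the vertical axis gives the percent of its counts that fall in the 37 mitochondrially encoded genes, bars are medians and filled points are cells with the Xist pattern. The CKO median of 4.76% lies under those of WT cells 1 to 11 (6.46%) and 12 to 45 (6.67%) and beside that of WT cells 46 to 48 (4.53%).

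The share came almost wholly from protein and ribosomal RNA genes. Protein genes gave 81.9% of the mitochondrially encoded counts in CKO and 82.8% in WT, ribosomal RNA genes 17.99% and 17.06%, and transfer RNA genes 0.0856% and 0.0955%. Each of the 13 protein and 2 ribosomal RNA genes had counts in all 65 cells. Set per length, mt-Cytb (the mitochondrial subunit of complex III) was highest at 11270 CPM per kb in CKO and 14423 CPM per kb in WT. mt-Nd1 followed at 8331 and 12391 CPM per kb, mt-Co1 at 5421 and 7654, and mt-Rnr2 at 4775 and 6020. Lowest was mt-Nd4l, at 9.86 CPM per kb in CKO and 16.3 in WT. The 6 protein genes inside the chromosome 1 copy lay between 9.86 and 438 CPM per kb in CKO and between 16.3 and 600 in WT. The other 7 protein genes lay between 1379 and 11270 CPM per kb in CKO and between 1996 and 14423 in WT. The groups of genes do not overlap in either genotype. mt-Co2 and mt-Co3 code for the partners of mt-Co1 in complex IV and stand just past it on the same strand. Whether reads matching both the mitochondrial gene and its nuclear copy were dropped, split or placed at random is not given in the sources used here, and its part in these levels was not tested.

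**Figure D2:**
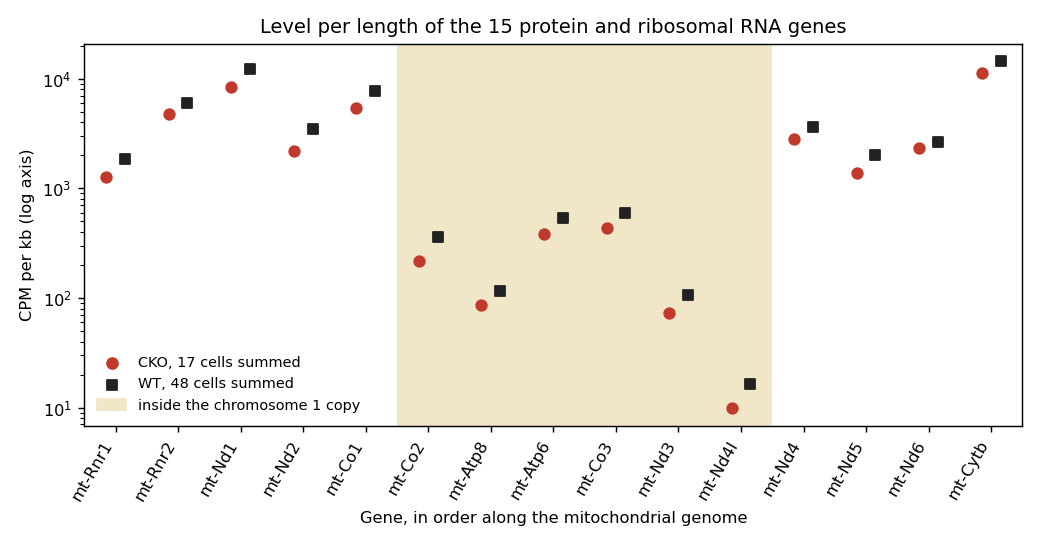
Summed level per length (CPM per kb, log axis) of the 15 protein and ribosomal RNA genes in order along the mitochondrial genome, CKO as circles and WT as squares, with the genes inside the chromosome 1 copy on a shaded ground. The 6 shaded genes reach at most 438 CPM per kb in CKO and 600 in WT, and the other protein genes start at 1379 in CKO and 1996 in WT.

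Of the 37 genes, 17 were measured, meaning at least 5 CPM in the higher genotype. They are 12 protein genes (all but mt-Nd4l), both ribosomal RNA genes and 3 transfer RNA genes. All but mt-Tn were lower in CKO, 16 of 17, where 49.6% of all 10842 measured genes of the table were lower. The median log2 ratio of the 17 was -0.46, against 0.01 over all measured genes. Lower by at least 1.5-fold, the size used for a call, were 3 (mt-Nd2, mt-Co2 and mt-Tp) against 23.3% of all measured genes, and 1 (mt-Tn) was higher by as much against 24.7%. The share of members that passed 1.5-fold in either direction was thus not above that of all genes. All 9 members with at least 1000 CPM were lower in CKO, where 57.1% of the 105 genes at that level were.

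The counts depended on the WT cells. Against WT cells 1 to 11, 18 members were measured and 12 were lower, beside 47.7% of all genes. In that run 4 members were lower by at least 1.5-fold (26.4% of all genes) and 4 higher (31.4%), and the median log2 ratio was -0.35, beside 0.06 over all genes. Against WT cells 12 to 45, 17 of 18 were lower (49.9% of all genes), 11 by at least 1.5-fold (25.1%), 1 was higher by as much (26%), and the median was -0.67, beside 0.0014 over all genes. Against WT cells 46 to 48, 6 of 17 were lower (45.6%), none by 1.5-fold (29.3%), 1 was higher by as much (40.1%), and the median was 0.10 beside 0.15 over all genes. All CKO cells enter each of these comparisons, so they are not independent of each other.

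**Figure D3:**
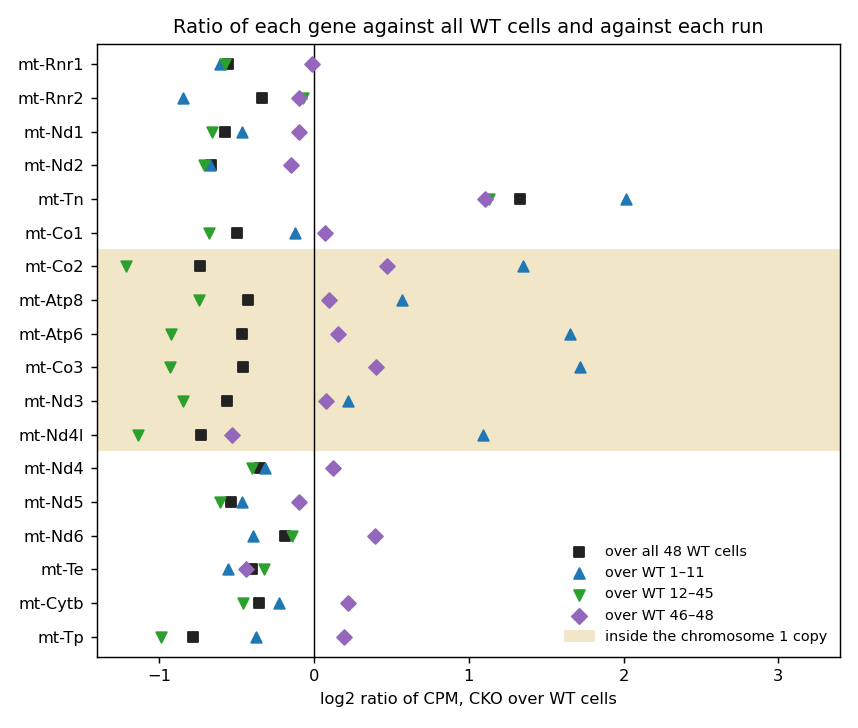
Log2 ratio of summed CPM, CKO over WT cells, of the 15 protein and ribosomal RNA genes and the 3 measured transfer RNA genes, in genome order, against all WT cells (squares), WT 1–11 (triangles up), WT 12–45 (triangles down) and WT 46–48 (diamonds). Genes on the shaded ground lie inside the chromosome 1 copy, and there mt-Co2 runs from -1.21 against WT 12–45 to 1.35 against WT 1–11, while mt-Nd1 stays between -0.66 and -0.10 over the 3 runs.

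Complex I (NADH dehydrogenase) takes 7 subunits from the mitochondrial genome, of which mt-Nd1, mt-Nd2, mt-Nd4, mt-Nd5 and mt-Nd6 lie outside the copy or reach past it. mt-Nd1 (chrM:2751-3707) ran from 3652 to 15257 CPM over CKO cells (median 7990). It lay between 7976 and 13445 CPM in WT cells 1 to 11 (median 10536) and between 8631 and 19065 in WT cells 12 to 45 (median 12523), and was at 7633, 7937 and 9934 CPM in WT cells 46 to 48. The CKO cells reached lower than any WT cell, with overlap above, and the log2 ratio of the sums (7973 against 11859 CPM) was -0.57. In 15.7% of cell pairs the CKO cell was the higher.

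mt-Nd2 (chrM:3914-4951) showed the lowest ratio among the 7 protein genes not inside the copy. It ran from 1171 to 4195 CPM in CKO (median 2398), from 2443 to 5325 in WT cells 1 to 11 (median 3639) and from 1522 to 7381 in WT cells 12 to 45 (median 3647), and was at 2205, 2669 and 2691 CPM in WT cells 46 to 48. Its log2 ratio was -0.67 against all WT cells, and -0.67, -0.71 and -0.15 against the runs in order. mt-Nd5 (chrM:11742-13565), at 2514 CPM in CKO against 3641 in WT, had a log2 ratio of -0.53, and -0.46, -0.60 and -0.09 against the runs. mt-Nd4 (chrM:10167-11544), whose first 876 bases the copy repeats, was at 3899 CPM against 4948 CPM, a log2 ratio of -0.34. In these 4 subunits the direction against all WT cells held in the runs 1 to 11 and 12 to 45, and only mt-Nd4 was higher in CKO (log2 ratio 0.13) against WT cells 46 to 48.

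mt-Nd6 (chrM:13552-14070, minus strand) is the only protein gene read from the opposite strand to the other 12, and its end overlaps mt-Nd5 by 14 bases. It ran from 527 to 2122 CPM over CKO cells (median 1241). In WT it ran from 1168 to 1982 CPM in cells 1 to 11 (median 1549) and from 474 to 2756 in cells 12 to 45 (median 1213), and was at 589, 956 and 1209 CPM in cells 46 to 48. The groups overlap widely, and the log2 ratio of -0.19 was the nearest to 0 of the measured members. Tagmented full-length cDNA does not mark the strand, so mt-Nd6 reads and antisense reads from the opposite precursor cannot be told apart.

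mt-Cytb had the most counts of all members in both genotypes. mt-Cytb (cytochrome b, chrM:14145-15288) ran from 7369 to 25296 CPM in CKO cells (median 12171), from 11776 to 18606 in WT cells 1 to 11 (median 14938), from 11970 to 29132 in WT cells 12 to 45 (median 17155), and was at 10272, 11234 and 11738 CPM in WT cells 46 to 48. Its log2 ratio was -0.36 against all WT cells, -0.22 and -0.46 against the first runs, and 0.22 against WT cells 46 to 48. No annotated nuclear transcript shares a 50-base window with it. mt-Co1 (the catalytic subunit of cytochrome c oxidase, chrM:5328-6872) ran from 4598 to 14114 CPM in CKO (median 8361). It lay between 7024 and 11231 CPM in WT cells 1 to 11 (median 8746) and between 10606 and 19077 in WT cells 12 to 45 (median 12719), and was at 7040, 7440 and 9305 CPM in WT cells 46 to 48. The median CKO cell lay below every cell of the run 12 to 45 and well within the other runs. The log2 ratio was -0.50 against all WT cells, -0.12 against WT cells 1 to 11, -0.68 against WT cells 12 to 45 and 0.08 against WT cells 46 to 48.

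The 6 protein genes inside the chromosome 1 copy (mt-Co2 and mt-Co3 of complex IV, mt-Atp6 and mt-Atp8 of the ATP synthase, mt-Nd3 and mt-Nd4l of complex I) differed more between the runs of WT cells than between CKO and all WT cells. Summed per cell, they ran from 566 to 1513 CPM in CKO (median 802), from 213 to 411 CPM in WT cells 1 to 11 (median 255) and from 1078 to 2684 CPM in WT cells 12 to 45 (median 1494), and were at 590, 631 and 719 CPM in WT cells 46 to 48. Every CKO cell was above every cell of the run 1 to 11, and most were below the lowest cell of the run 12 to 45. The runs were set after seeing mt-Co2, which is part of this sum, so this split is a description only. Summed, the other 7 protein genes showed no such split. They ran from 20875 to 73295 CPM in CKO (median 38700) and from 39183 to 58929 in WT cells 1 to 11 (median 45242). In WT cells 12 to 45 they ran from 38397 to 88102 CPM (median 56027). WT cells 46 to 48 were at 33260, 36294 and 42085 CPM. Of the 7, mt-Co1, which the copy cuts into, came near such a split. It lay between 7024 and 11231 CPM in WT cells 1 to 11 and between 10606 and 19077 in WT cells 12 to 45. mt-Nd4, which the copy also cuts into, did not: it lay between 3527 and 6234 CPM in WT cells 1 to 11. In WT cells 12 to 45 mt-Nd4 lay between 1969 and 11530 CPM.

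**Figure D4:**
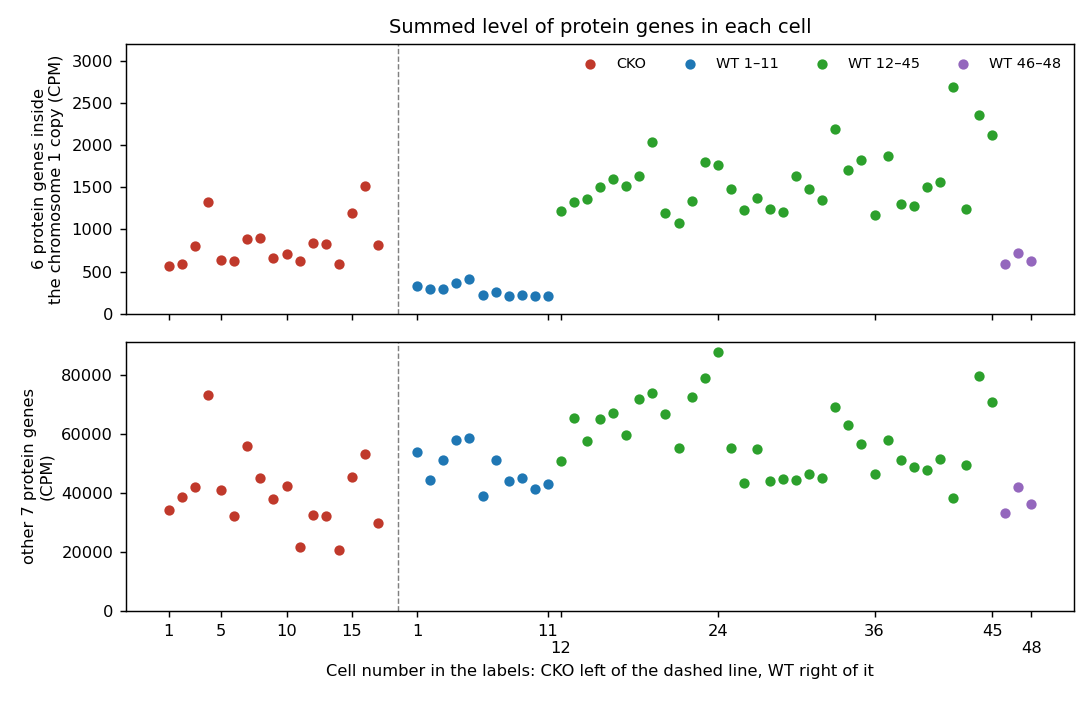
Summed CPM of the 6 protein genes inside the chromosome 1 copy (upper panel) and of the other 7 protein genes (lower panel) in each cell, by the cell number in the labels, with CKO left of the dashed line and WT right of it. In the upper panel the WT cells 1 to 11 lie at 213 to 411 CPM and the WT cells 12 to 45 at 1078 to 2684 CPM, and in the lower panel these runs overlap.

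Singly, mt-Co2 (chrM:7013-7696) ran from 94.8 to 283 CPM in CKO (median 147), from 33.5 to 83.6 in WT cells 1 to 11 and from 229 to 644 in WT cells 12 to 45, and was at 100.1, 109 and 111 CPM in WT cells 46 to 48. mt-Atp6 (chrM:7927-8607) ran from 171 to 491 CPM in CKO (median 268), from 59.1 to 122 in WT cells 1 to 11 and from 323 to 903 in WT cells 12 to 45. mt-Co3 (chrM:8607-9390) ran from 238 to 666 CPM in CKO (median 313), from 73.0 to 164 in WT cells 1 to 11 and from 425 to 1039 in WT cells 12 to 45. For all 3, no CKO cell overlapped the run 1 to 11, and the highest CKO cells reached into the run 12 to 45. The 3 genes are neighbours and the runs were set after seeing mt-Co2, so these are not 3 separate observations. The share of all genes that separate as fully from the run 1 to 11 is not given here, for these genes or for the sum above. Their log2 ratios were -0.74, -0.46 and -0.45 against all WT cells, 1.35, 1.65 and 1.72 against WT cells 1 to 11, and -1.21, -0.92 and -0.93 against WT cells 12 to 45. A ratio against all 48 WT cells is thus a mean over runs that lie on opposite sides of the CKO cells.

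The smaller genes of the stretch had fewer counts. mt-Nd3 (chrM:9459-9806) was at 25.2 CPM in CKO against 37.1 CPM in WT, a log2 ratio of -0.56, with 21.6 CPM in the run 1 to 11 and 45.3 in the run 12 to 45. mt-Atp8 (chrM:7766-7969), which overlaps mt-Atp6 by 43 bases, was at 17.7 CPM against 23.7 CPM, a log2 ratio of -0.42, with 11.9 CPM and 29.5 CPM in these runs. mt-Nd4l (chrM:9877-10173) fell short of 5 CPM, at 2.93 CPM in CKO and 4.84 CPM in WT. mt-Atp8 split the runs in the same order as its neighbours. It shares no 50-base window with an annotated nuclear transcript, but by position its last 43 bases lie inside Gm10925 and the rest in the gap whose bases were not read, so its match to the copy was not tested.

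The pseudogenes of the copy had counts in all 65 cells and split the runs in the same way. Gm28437, the match of mt-Co3, was at 867 CPM in CKO against 892 CPM in WT, more than mt-Co3 itself (343 and 471 CPM) over nearly the same length. In the runs it was at 270, 1186 and 670 CPM. Gm10925, the match of mt-Atp6, was at 665 CPM in CKO, and at 154, 1002 and 604 CPM in the runs. Gm29216, which matches the 3′ part of mt-Co1, was at 462 CPM in CKO, and at 116, 520 and 250 CPM in the runs. Gm28661 was at 235 CPM in CKO and 285 CPM in WT, and Gm28439 at 53.3 and 58.3 CPM. Gm28438 (mt-Nd3) was at 20.98 and 34.7 CPM, and Gm10222 (mt-Nd4l) at 6.86 and 8.78 CPM. The 9 nuclear matches outside chromosome 1 that the table lists had at most 10.7 CPM over all cells (Gm13339, a match of mt-Nd2), below the copy's pseudogenes other than Gm10222, which was at 8.27 CPM.

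Summed, the 5 members that have a pseudogene of their own and lie wholly inside the copy were at 782 CPM in CKO against 1121 CPM in WT, a log2 ratio of -0.52. With the counts of their 5 pseudogenes added, the sums were 2578 against 3076 CPM, a log2 ratio of -0.26. Against WT cells 1 to 11 the combined log2 ratio was 1.74, and against WT cells 12 to 45 it was -0.70, so adding the copy keeps the split between runs. The division of counts between a member and its pseudogene also differed. Reads within bases that are identical in both cannot be told apart by sequence, and how they were placed is not given. The percents that follow thus do not measure a member and its pseudogene separately. mt-Co2 held 29.3% to 46.97% of the counts of the pair mt-Co2 and Gm28661 in CKO cells (median 40%), 42.1% to 52.1% in WT cells 1 to 11 (median 48.5%), 41.99% to 53.2% in WT cells 12 to 45 (median 47.2%), and 19.3%, 42.1% and 42.6% in WT cells 46 to 48. The ranges overlap, and the CKO median lies below the lowest cell of the runs 1 to 11 and 12 to 45. For mt-Atp6 and Gm10925 the medians were 28.5% in CKO and 35.9%, 33.5% and 28.3% in the runs. For mt-Nd4l and Gm10222 they were 30.8% in CKO and 34.55%, 36.4% and 37.8% in the runs. The other pairs turned with the run. The medians were 29.1% in CKO and 26.8%, 35.2% and 28.2% for mt-Co3, and 52.3% in CKO and 57.4%, 49.45% and 54.6% for mt-Nd3.

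The ribosomal RNA genes, which code for the small (mt-Rnr1) and large (mt-Rnr2) subunit RNAs of the mitochondrial ribosome, were lower in CKO by differing amounts. mt-Rnr2 (chrM:1094-2675) ran from 2991 to 19306 CPM in CKO (median 6798), from 8024 to 30118 in WT cells 1 to 11 (median 10957), from 4443 to 15695 in WT cells 12 to 45 (median 7502), and was at 7138, 7160 and 9826 CPM in WT cells 46 to 48. The CKO cells overlap every run. Its log2 ratio was -0.33 against all WT cells, and -0.84, -0.07 and -0.09 against the runs. mt-Rnr1 (chrM:70-1024) ran from 374 to 3195 CPM in CKO (median 1275) and from 890 to 3518 CPM in WT (median 1649). Its log2 ratio was -0.55, and -0.60, -0.57 and -0.01 against the runs. The counts of mt-Rnr2 were 6.04 times those of mt-Rnr1 in the median CKO cell, and 7.01, 4.21 and 6.18 times in the median cells of the runs.

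Of the 22 transfer RNA genes, 16 were under 1 CPM in both genotypes, 3 were between 1 and 5 CPM in the higher one, and 3 reached 5 CPM. These 3, mt-Tp (proline), mt-Te (glutamate) and mt-Tn (asparagine), held 91.6% of all transfer RNA counts in CKO and 86.5% in WT. All 3 are among the 8 transfer RNA genes on the minus strand, which together had 39.7 of 41.7 CPM in CKO and 58.8 of 63.3 CPM in WT. Mature transfer RNAs are short, folded and poorly copied into full-length cDNA, and with the strand not marked, their counts, those of uncut precursors and those of antisense RNA cannot be told apart. mt-Tf, mt-Td, mt-Tk and mt-Ts1 had no count in CKO and at most 8 counts over all WT cells, and mt-Td, mt-Tk and mt-Ts1 lie inside the chromosome 1 copy. Between 1 and 5 CPM stood mt-Tc (1.03 CPM in CKO against 0.615 CPM in WT), mt-Tl1 (0.611 against 1.77 CPM) and mt-Tq. The whole genes of the 3 measured transfer RNAs are given next, with mt-Tq (glutamine), which was chosen after its values were seen.
mt-Tp: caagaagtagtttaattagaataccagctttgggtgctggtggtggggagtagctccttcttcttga
mt-Te: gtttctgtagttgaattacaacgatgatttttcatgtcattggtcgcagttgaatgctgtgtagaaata
mt-Tn: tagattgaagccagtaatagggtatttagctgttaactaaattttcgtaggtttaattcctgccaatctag
mt-Tq: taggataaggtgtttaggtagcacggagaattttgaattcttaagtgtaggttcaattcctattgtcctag

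mt-Tp (chrM:15356-15422) ran from 0.131 to 48.3 CPM in CKO cells (median 27.96), from 10.97 to 52.2 in WT cells 1 to 11, from 10.3 to 102 in WT cells 12 to 45, and was at 12.8, 19.1 and 34.2 CPM in WT cells 46 to 48. Its log2 ratio was -0.78 against all WT cells and 0.20 against WT cells 46 to 48. mt-Te (chrM:14071-14139) was at 7.23 CPM in CKO against 9.52 CPM in WT, a log2 ratio of -0.40. mt-Tn (chrM:5089-5159) was the only measured member higher in CKO, at 6.04 CPM against 2.40 CPM, a log2 ratio of 1.33. It had counts in 13 of 17 CKO cells and 31 of 48 WT cells and ran from 0 to 17.4 CPM in CKO and from 0 to 13.9 CPM in WT, so the groups overlap almost wholly. Its log2 ratios against the runs were 2.02, 1.13 and 1.11. mt-Tq (chrM:3772-3842) was low in CKO, with counts in 5 of 17 cells and at most 0.206 CPM. In WT cells 1 to 11 every cell had 3.81 to 21.1 CPM. In WT cells 12 to 45 it was found in 16 of 34 cells at up to 5.27 CPM, and in WT cells 46 to 48 in 1 of 3 cells at 0.0857 CPM. No CKO cell overlapped the run 1 to 11, while 0.570 CPM in the run 12 to 45 and 0.0400 CPM in CKO are both low levels. Here too the share of all genes that separate as fully from the run 1 to 11 is not given.

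Within the mitochondrially encoded counts, where a difference of the whole set does not enter, most proportions lay near each other in the genotypes. Over all cells mt-Cytb made up 26.5% of these counts in CKO and 24.9% in WT, mt-Co1 17.2% and 17.8%, mt-Nd1 16.4% and 17.9%, mt-Rnr2 15.5% and 14.4%, mt-Nd4 7.997% and 7.47%, mt-Nd5 5.16% and 5.49%, mt-Nd2 4.67% and 5.45%, mt-Rnr1 2.50% and 2.69%, and mt-Nd6 2.48% and 2.07%. As log2 ratios of proportions, mt-Nd6 was 0.26, mt-Rnr2 0.11, mt-Nd4 0.10 and mt-Cytb 0.09, while mt-Nd2 was -0.22 and mt-Nd1 -0.13. Against the single runs, mt-Nd2 kept a lower proportion in CKO (-0.27, -0.21 and -0.19), mt-Nd1 likewise (-0.06, -0.16 and -0.14), and mt-Cytb a higher one (0.18, 0.05 and 0.17). mt-Rnr2 did not: its proportion ratio was -0.44 against WT cells 1 to 11 and 0.44 against WT cells 12 to 45.

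Per cell, mt-Rnr2 was 10.4% to 24.6% of the mitochondrially encoded counts in CKO (median 14.5%), 15.2% to 35.4% in WT cells 1 to 11 (median 16.5%), 7.54% to 16.95% in WT cells 12 to 45 (median 11.1%), and 15.8%, 17.1% and 18.1% in WT cells 46 to 48. mt-Co1 was 13.6% to 20.8% in CKO (median 17.6%), 10.9% to 17.3% in WT cells 1 to 11 (median 14.6%) and 15.6% to 23.4% in WT cells 12 to 45 (median 19.9%). For both genes the CKO median falls between those of the larger runs. mt-Nd6 was 1.70% to 3.25% in CKO (median 2.51%), near the run 1 to 11 (median 2.50%) and above the run 12 to 45 (median 1.78%).

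**Figure D5:**
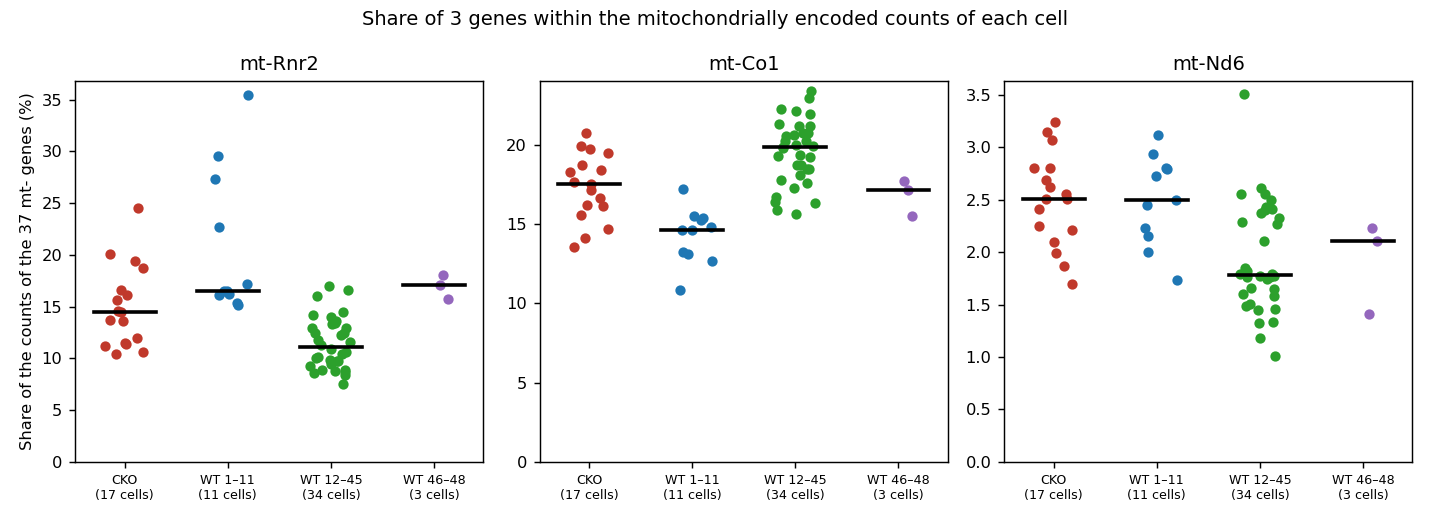
Percent of the counts of the 37 genes that fall on mt-Rnr2, mt-Co1 and mt-Nd6 in each cell, by CKO and the 3 runs of WT cells, with bars at the medians. The mt-Rnr2 median is 14.5% in CKO, 16.5% in WT 1–11, 11.1% in WT 12–45 and 17.1% in WT 46–48.

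From cell to cell the levels moved together. Over the 9 genes with at least 1000 CPM, the Spearman correlation of CPM had a median over 36 pairs of genes of 0.71 in 17 CKO cells (0.45 to 0.89), of 0.40 in 11 WT cells of the run 1 to 11 (-0.10 to 0.76) and of 0.71 in 34 WT cells of the run 12 to 45 (0.37 to 0.86). mt-Nd1 and mt-Cytb had a Pearson correlation of 0.89 and a Spearman correlation of 0.85 in CKO. All values of a cell share 1 library and 1 total. The spread of mt-Cytb between cells (SD over mean) was 32.7% for its level in CKO and 10.46% for its proportion, against 23.6% and 10.1% in WT. mt-Co2 followed its pseudogene Gm28661 (Spearman 0.85 in CKO, 0.83 in WT cells 1 to 11, 0.94 in WT cells 12 to 45) more closely than its neighbour mt-Co1 (0.24, 0.38 and 0.54), which the copy only cuts into. With mt-Atp6, a nearby gene inside the copy, the Spearman correlations of mt-Co2 were 0.79, 0.81 and 0.91, near those with Gm28661. Its Pearson correlations were 0.88, 0.91 and 0.92 with mt-Atp6, and 0.82, 0.87 and 0.93 with Gm28661. Gm28661 is 100% identical to mt-Co2 over 681 bases, so reads within these bases cannot be told apart by sequence. Their correlation is thus not one of 2 separately measured genes. In WT cells 12 to 45 cells with fewer genes detected had a higher mitochondrially encoded share (Pearson -0.66, Spearman -0.62, n = 34). The same run holds WT cells 12 to 24, with medians of 6659 genes and a share of 8.10%, and WT cells 25 to 45, with 7681 genes and 5.80%. The part of that split was not tested. The correlations were -0.22 and -0.19 in 17 CKO cells, and 0.19 and -0.09 in 11 WT cells of the run 1 to 11.

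Summed nuclear-encoded subunits of the respiratory chain, complex II included, lay near each other in the genotypes. The list of 28 nuclear-encoded respiratory chain subunits summed to 18269 CPM in CKO and 18998 CPM in WT, and per cell to 1.40% to 2.27% of counts in CKO (median 1.85%) and 1.38% to 2.50% in WT (median 1.93%). All 28 were measured: 20 were lower in CKO and 8 higher, 1 was higher by at least 1.5-fold and none was lower by as much. Over all measured genes 49.6% were lower. Against the runs in order 16, 21 and 9 of the 28 were lower, so most were higher against WT cells 46 to 48. The one higher by 1.5-fold was Ndufa9, a complex I subunit, at 209 CPM in CKO against 137 CPM in WT. Uqcrc1 of complex III was at 329 CPM against 475 CPM, and Sdhb of complex II at 330 against 437 CPM. The median log2 ratio of the list was -0.06, and it was -0.06, -0.10 and 0.15 against the runs in order.

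Genes that copy, transcribe and process the mitochondrial genome had low counts, and several were missing from most cells. Of 10 genes for transcription, 9 were measured, 3 were higher in CKO by at least 1.5-fold and 1 lower, and against the runs 4, 3 and 4 were higher and 3, 1 and 5 lower. Polrmt, the mitochondrial RNA polymerase, was at 14.99 CPM in CKO (counts in 7 of 17 cells) against 1.23 CPM in WT (8 of 48 cells). Tfam, which packages the genome and helps start its transcription, was at 16.1 CPM (6 of 17 cells) against 44.5 CPM (30 of 48 cells), with 81.6, 29.4 and 33.1 CPM in the runs. Mterf2 and Mterf1a, of the family of mitochondrial transcription termination factors, were at 11.8 CPM in CKO against 2.89 CPM in WT and at 5.58 against 1.73 CPM. Mterf2 had no count in WT cells 1 to 11 or 46 to 48. Mterf1a turned with the run, at 0.0386, 0.259 and 23.4 CPM in the runs, so that its WT level came mostly from WT cells 46 to 48.

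Of 14 genes for replication and packaging, 13 were measured, 3 were higher by at least 1.5-fold and 5 lower. Twnk, the replicative helicase, was at 7.83 CPM against 2.07 CPM and had counts in 3 of 17 CKO cells and 8 of 48 WT cells. Rrm2b, a ribonucleotide reductase subunit that supplies nucleotides for this DNA, was at 7.40 against 22.7 CPM. Of 33 genes for RNA processing, modification and stability, 29 were measured, with 7 higher and 6 lower by at least 1.5-fold. The balance turned with the run: 12 were higher and 4 lower against WT cells 1 to 11 (median log2 ratio 0.48), 4 and 8 against WT cells 12 to 45 (-0.15), and 13 and 8 against WT cells 46 to 48. Trmt10c, a subunit of the mitochondrial RNase P that cuts transfer RNAs out of precursors, was at 51.7 CPM against 17.1 CPM. Tsfm, an elongation factor of mitochondrial translation, was at 27.7 against 11.7 CPM. Trmt5, a transfer RNA methyltransferase, had no count in 17 CKO cells, where 3 counts would be 0.0150 CPM, and 8.23 CPM in WT from 9 of 48 cells.

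Regulators of mitochondrial biogenesis were 6 measured genes of 9, with none higher and 2 lower by at least 1.5-fold. Against WT cells 46 to 48 they turned, with 5 higher, none lower and sums of 139 CPM in CKO against 61.04 CPM. Esrra was at 10.1 CPM in CKO against 22.9 CPM in WT, Gabpa at 8.30 against 17.3 CPM and Nrf1 at 14.5 against 19.4 CPM, all transcription factors of nuclear genes for mitochondria. In WT cells 46 to 48 Esrra had no count, Gabpa was at 0.110 CPM and Nrf1 at 0.0275 CPM. Of the 11 genes of the outer membrane and import, all measured, 1 was higher and 1 lower by at least 1.5-fold: the matrix chaperonin Hspd1 was at 257 CPM against 127 CPM, and the import motor subunit Timm44 at 28.9 against 57.4 CPM, though at 28.2 CPM in WT cells 1 to 11. Against the runs 4, 1 and 3 of the 11 were higher by that much and 0, 1 and 2 lower. Vdac2, an outer membrane channel, was at 244 against 329 CPM. Of 10 genes of mitophagy, the removal of mitochondria by autophagy, 9 were measured, with 1 higher and 1 lower by at least 1.5-fold, and against the runs 0, 2 and 4 higher and 2, 1 and 2 lower. Bcl2l13 was at 22.5 CPM against 8.36 CPM, and Bnip3 at 34.1 CPM (9 of 17 cells) against 77.1 CPM (44 of 48 cells), both receptors on the outer membrane. In WT cells 46 to 48 Bnip3 was at 34.3 CPM, near its CKO level. The adaptor Sqstm1 was at 157 against 105 CPM. Beside these counts stand the 23.3% of all measured genes that were lower by at least 1.5-fold and the 24.7% that were higher, and the shares over all genes given above for each run.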

How the data were processed

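The deposited table holds raw counts per gene symbol for 65 single cells. Per the labels' protocols, full-length cDNA was made with a Smart-Seq HT kit and tagmented. The submitters' processing notes name HISAT2 2.2.1, StringTie 2.2.1, featureCounts 2.0.1 and build mm10, and the sources used here do not give the settings for multi-mapped reads or strand. All columns were matched to cells by title, and no 2 of 2080 pairs of columns were identical.

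For each group, a gene's counts over all its cells were divided by the total of those cells (CPM, with Python 3.11.15, pandas 2.3.3 and scipy 1.17.1). A gene was called measured at 5 CPM or more in the higher group, and a call was 1.5-fold. Intervals are exact at 95% (conditional binomial for ratios). TMM factors (edgeR 4.0.16) and median-of-ratios factors (DESeq2 1.42.0) served as alternatives on the summed counts. Shared sequence was found with BLAST 2.17.0 (at least 100 bases and 90% identity) and by exact windows among GENCODE M21 transcripts. The ratio calculation was checked on simulated counts. The members and gene lists were chosen with earlier results of these data known. Values are named for each protein and ribosomal RNA gene, each transfer RNA gene with 5 CPM, the 5 highest nuclear matches, and up to 3 measured genes per list with the largest log2 ratio. The other pseudogenes were named after their values were seen.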

Additional observations from a re-analysis of the deposited data

How the results depend on the processing

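No paired analysis was possible because cell numbers only name cells and no result comes from a test. The log2 ratio of the share, -0.44 against all WT cells, was -0.48 with either TMM or median-of-ratios factors, -0.47 with the members left out of the total and -0.46 with ribosomal protein genes and Ocm left out as well. It was -0.44 as a mean and -0.45 as a median of per-cell values, -0.38 without the deepest cell of each group, -0.45 in cells with at least 10000000 counts, -0.36 in Xist-pattern cells and -0.46 for protein genes only. Against the runs it was -0.40 and -0.50, and 0.046 (reversed) against WT cells 46 to 48. The median over members, -0.46, was -0.50 with TMM or median-of-ratios factors, -0.51 and -0.49 with the reduced totals, -0.50 and -0.53 as mean and median per cell, -0.45 without the deepest cells, -0.45 in cells with at least 10000000 counts, -0.20 in Xist-pattern cells, -0.35 and -0.67 against the first runs, 0.10 (reversed) against WT cells 46 to 48, -0.55 with no filter, and -0.48 at 100 CPM or for protein genes only. The number of members lower in CKO, 16 of 17, was 12 of 18, 17 of 18 and 6 of 17 against the runs. It was 28 of 33 with no filter. In Xist-pattern cells the level of 6 of 18 genes turned: mt-Co2, mt-Atp8, mt-Atp6, mt-Co3, mt-Nd3 and mt-Nd4l, all inside the copy. The same 6 genes turned against WT cells 1 to 11, the run that holds 8 of the 9 Xist-pattern WT cells, so these are not separate observations. Chosen after seeing the data, leaving out the 6 genes inside the copy gave a share ratio of -0.44 and a median of -0.45, and adding the copy's counts gave -0.43 and -0.44. Leaving out each cell in turn gave share ratios from -0.51 (without CKO cell 4) to -0.39 (without CKO cell 14), medians from -0.52 to -0.43 and a count of 16 each time. Some single genes past 1.5-fold turned, among them mt-Nd4l, which was under 5 CPM and so not called. mt-Co2 was at 1.35 and mt-Nd4l at 1.09 against WT cells 1 to 11, and at 0.80 and 0.64 in Xist-pattern cells. Against WT cells 46 to 48 mt-Co2 was at 0.47 and mt-Tp at 0.20. All these went the other way than against all WT cells. The cause of these changes was not tested. At this depth counting error is small beside the spread between cells.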

Other observations

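WT cells 12 to 24 had lower totals (7458126 to 9842592 counts, a split set on totals in earlier work) than most of WT cells 25 to 45. Their mitochondrially encoded share was 6.39% to 10.2% (median 8.10%), against 4.71% to 9.28% (median 5.80%) in WT cells 25 to 45. mt-Rnr2 was 13.4% of the mitochondrially encoded counts in the median cell of WT cells 12 to 24 and 9.86% in WT cells 25 to 45, and mt-Nd6 2.41% and 1.75%. In 4 of the 11 WT cells 1 to 11 mt-Rnr2 took 22.7% to 35.4% of the mitochondrially encoded counts, and the highest CKO cell, CKO cell 7, had 24.6%.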
